A study of Saccharomyces cerevisiae with 15 samples.

Results

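The yeast genes EGO4 (YNR034W-A), SPG1 (YGR236C), SPG4 (YMR107W) and SPG5 (YMR191W), known from non-growing cultures, were followed across the 15 cultures of the study. They are 4 of the 6692 genes counted, and all 4 passed the filter on low counts, as did 6588 genes in all. The members were chosen from earlier results of these data: the fold changes of the strain expressing scFv-58F had put EGO4 and SPG1 forward, and SPG4 and SPG5 were added because they are also named for stationary phase. For this reason the values of the intrabody strains are given for these genes as a description with no test. The drug treatments were tested, although their comparisons with DMSO use the same 3 DMSO cultures as those of the intrabody strains.

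RNA was sequenced from Saccharomyces cerevisiae L40, grown in SD-L medium, with 3 cultures in each of 5 groups. This mat-a strain holds the reporters URA3::(lexAop)8-lacZ and LYS2::(lexAop)4-HIS3, and its other listed alleles are ade2, trp1-901, hisΔ200, Gal4 and leu2 with the mutations 3 and 112. All cultures carried the plasmid pL220. In 3 groups the plasmid was empty and the cells received DMSO at 0.4%, Curcumin at 200 µM or CPTH2 at 400 µM for 1 h. Both drugs were used as inhibitors of histone acetyltransferases and were dissolved in DMSO at the same percentage. The study describes CPTH2 as an inhibitor of the enzyme Gcn5, and states that activities beyond such enzymes are also reported for Curcumin. In the other two groups the plasmid expressed an HA-tagged intrabody, an antibody fragment made inside the cell, and the cells received DMSO only: scFv-58F binds histone H3 acetylated at lysine 9, and scFv-645 binds neuroligin-2 and served as the unrelated intrabody. The comparisons ask how chemical inhibition of the enzymes and masking of the acetylated lysine act on expression.

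Between 9062694 and 18878167 reads fell on genes per culture, with a median of 12204400. Levels are given in CPM, the read count of a gene relative to the size of its library, after TMM scaling with a factor per library that sets most genes level. The 3 Curcumin cultures differed most among themselves: the chi-square per degree of freedom between their counts ran from 89.1 to 543, against 4.43 to 63.3 for pairs within the other groups, and their TMM factors lay at 1.16 to 1.29 against 0.901 to 1.01 elsewhere. These are bulk cultures, in which fewer cells that express a gene and less of its RNA per cell cannot be told apart.

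When glucose runs out, budding yeast passes through the diauxic shift, respires the ethanol it has made and then enters stationary phase, in which growth stops and cells become resistant to heat. Falling activity of protein kinase A and of TORC1, the growth-promoting kinase complex at the vacuole, lets the kinase Rim15 and the factors Msn2, Msn4 and Gis1 induce a large set of stress genes. Msn2 and Msn4 bind the stress response element (STRE), and Gis1 the post-diauxic shift (PDS) element. EGO4 encodes a small protein of undetermined function that is made in the diauxic shift and stationary phase, and it is the paralog of EGO2, a subunit of the EGO complex that anchors TORC1 signalling at the vacuole. SPG1 and SPG4 are needed to survive high temperature in stationary phase, and Spg1 has been found in mitochondria. SPG5 is needed for proteasomes to assemble in quiescent cells, where its product binds the base of the regulatory particle.

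The genes lie apart from each other, on 3 chromosomes of the S288C assembly R64, the build of the files: EGO4 at chrXIV:692561-692857 on the plus strand, SPG1 at chrVII:962530-962817 on the minus strand, SPG4 at chrXIII:483014-483361 on the plus strand and SPG5 at chrXIII:645656-646777 on the plus strand. Each is a single protein-coding open reading frame of 297, 288, 348 and 1122 bp, respectively, and none overlaps another counted gene. The upstream sequences are shown because the members moved together in some cultures and apart in others. Both strands were searched for 4 motifs: the STRE (CCCCT), the PDS element (TAAGGGAT or TTAGGGAT), a head-to-head heat shock repeat (GAANNTTC) and the proteasome-associated element PACE (GGTGGCAAA). In the window from 250 bases before to 50 bases after the first base of the coding sequence, EGO4 held 1 STRE, as 21.7% of 5980 such windows did, SPG5 held 1 heat shock repeat, as 11.8% did, and SPG1 and SPG4 held no match. The PDS element and PACE, present in 1.59% and 1.19% of the windows, had no match in any of the 4. In a longer window of 500 bases before the coding sequence, chosen after the first result was seen, EGO4 held 5 STREs, a number reached by 12 of 5979 windows (0.201%), and at least 1 was found in 34.1%. These 5 began 498, 411, 354, 329 and 155 bases before the start codon. SPG1, SPG4 and SPG5 had no STRE there. None of the matches overlapped another, and a match is a run of letters and not a measured binding site.

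The same stretch is printed for EGO4 and for SPG4, whose levels moved in opposite directions under Curcumin. Any part of the motifs in these levels was not tested. The stretch was placed by the STREs of EGO4. It runs from 415 to 116 bases before the start codon and so holds 4 of the 5 STREs of EGO4, which are in capitals. It lies at chrXIV:692146-692445 for EGO4 and at chrXIII:482599-482898 for SPG4, both on the plus strand. The third sequence is the 30 bases around the heat shock repeat of SPG5, in capitals, at chrXIII:645567-645596 on the plus strand.
EGO4: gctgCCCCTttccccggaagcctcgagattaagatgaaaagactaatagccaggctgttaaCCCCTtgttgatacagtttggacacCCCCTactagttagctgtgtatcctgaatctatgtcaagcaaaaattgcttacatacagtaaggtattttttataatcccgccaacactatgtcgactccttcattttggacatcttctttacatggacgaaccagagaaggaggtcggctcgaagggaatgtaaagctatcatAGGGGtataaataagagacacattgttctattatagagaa
SPG4: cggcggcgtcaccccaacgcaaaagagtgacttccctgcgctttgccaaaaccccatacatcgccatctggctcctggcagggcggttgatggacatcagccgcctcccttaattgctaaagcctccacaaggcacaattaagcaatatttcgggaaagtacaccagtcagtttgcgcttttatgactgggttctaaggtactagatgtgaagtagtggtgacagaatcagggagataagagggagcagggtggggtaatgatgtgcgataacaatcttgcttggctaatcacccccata
SPG5: acatgtggagaGAAGCTTCtcttccttcac

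EGO4 was the most abundant of the 4 in the control cultures. Per kilobase of gene length it stood at 1383 CPM per kb in DMSO, rank 215 of 6588 genes, followed by SPG4 at 532 CPM per kb (rank 396). SPG1 and SPG5 were much lower, at 93.0 and 88.2 CPM per kb (ranks 1788 and 1865). The raw counts behind these levels were lowest for SPG1, at 238 reads in DMSO replicate 1, and reached 20838 reads for EGO4 in CPTH2 replicate 1.

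EGO4 was the member whose level spread most between groups. In DMSO its level was 369, 408 and 455 CPM in the 3 replicates. Under Curcumin it was 111, 54.8 and 90.8 CPM, and under CPTH2 it was 1365, 1210 and 901 CPM. Every Curcumin culture was thus below every DMSO culture, and every CPTH2 culture above. The strain expressing scFv-58F had 821, 863 and 953 CPM and the strain expressing scFv-645 had 390, 416 and 368 CPM. From low to high the group means ran from Curcumin (85.5 ± 28.4 CPM, SD, n = 3) to scFv-645 (391 ± 24.4), DMSO (411 ± 43.2), scFv-58F (879 ± 67.3) and CPTH2 (1159 ± 236). The ranges of scFv-645 and DMSO overlapped, as did those of scFv-58F and CPTH2.

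SPG1 had the lowest mean CPM of the members in every group. It measured 24.1, 25.3 and 31.0 CPM in DMSO and 32.0, 34.5 and 36.7 CPM under Curcumin. Under CPTH2 it reached 197, 168 and 134 CPM. The CPTH2 cultures lay far above all others, whereas the ranges of DMSO, scFv-645 and Curcumin, the 3 groups with the lowest means, overlapped from one to the next. With scFv-58F the level was 60.6, 49.5 and 51.7 CPM, and with scFv-645 it was 28.4, 33.8 and 29.4 CPM. The means were 26.8 ± 3.67 CPM in DMSO, 30.6 ± 2.89 in scFv-645, 34.4 ± 2.33 in Curcumin, 53.9 ± 5.88 in scFv-58F and 166 ± 31.4 in CPTH2 (SD, n = 3 each).

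Every culture of the other groups had more SPG4 than every DMSO culture. The gene measured 168, 169 and 219 CPM in DMSO, 367, 284 and 280 CPM under Curcumin and 672, 641 and 512 CPM under CPTH2. With scFv-58F it was 469, 389 and 366 CPM, and with scFv-645 it was 239, 230 and 229 CPM. DMSO (185 ± 29.3 CPM, SD, n = 3), scFv-645 (233 ± 5.63), Curcumin (311 ± 49.2), scFv-58F (408 ± 53.9) and CPTH2 (608 ± 85.1) followed in this order, and only the ranges of Curcumin and scFv-58F overlapped among neighbours in it.

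SPG5 had the narrowest spread of the members. Its level was 104, 92.0 and 101 CPM in DMSO, 106, 89.4 and 164 CPM under Curcumin and 202, 231 and 217 CPM under CPTH2. Curcumin replicate 3 stood apart from the other Curcumin cultures, of which 1 lay above and 1 below the whole DMSO range. The intrabody strains had 142, 125 and 119 CPM with scFv-58F and 106, 116 and 119 CPM with scFv-645. The means were 98.9 ± 6.09 CPM in DMSO, 114 ± 6.72 in scFv-645, 120 ± 39.4 in Curcumin, 129 ± 11.8 in scFv-58F and 217 ± 14.4 in CPTH2 (SD, n = 3 each). The ranges of scFv-645, Curcumin and scFv-58F overlapped from one to the next.

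**Figure D1:**
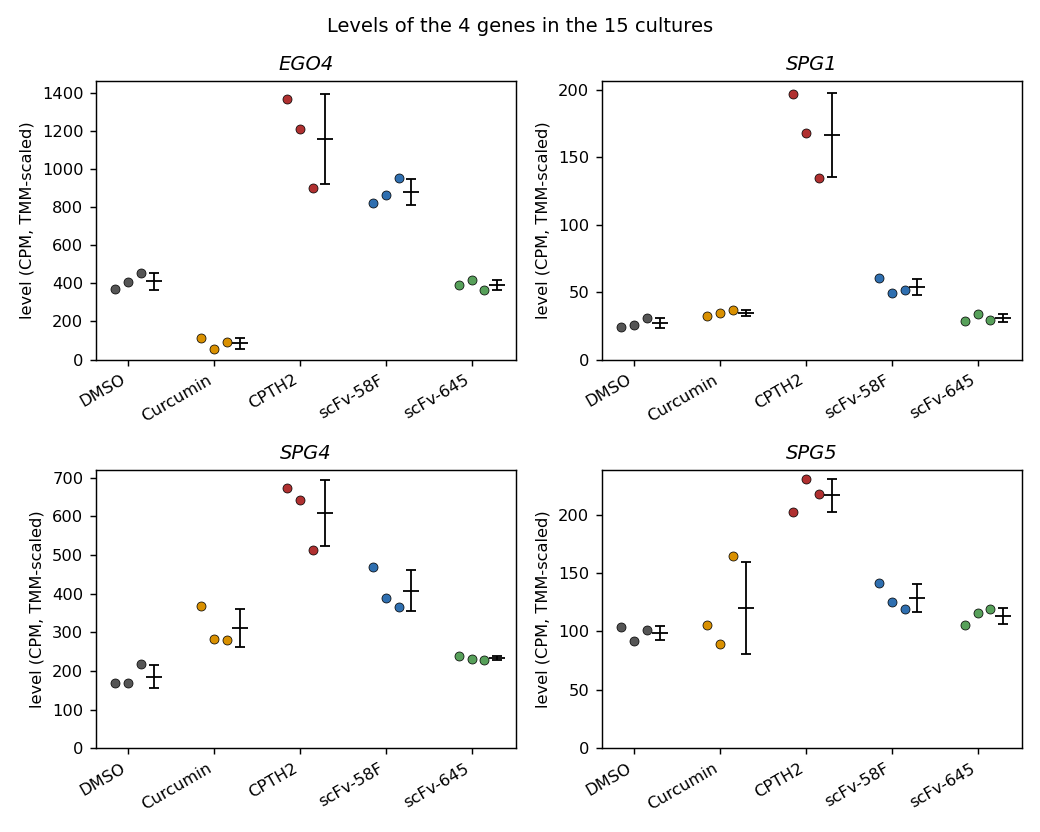
Level of each gene (y axis, TMM-scaled CPM, from 0) in each of the 3 cultures of the 5 groups (x axis); circles are cultures and the bar beside them is the mean ± SD. EGO4 lies between 54.8 and 111 CPM under Curcumin, below all other cultures, and in all 4 panels the CPTH2 group has the highest mean.

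CPTH2 raised all 4 genes. SPG1 rose most, by 6.22-fold over DMSO, followed by SPG4 (3.29-fold), EGO4 (2.82-fold) and SPG5 (2.19-fold). On the log2 scale the changes were 2.64 (SE 0.15, adjusted p = 7.35e-06) for SPG1, 1.72 (SE 0.15, adjusted p = 2.88e-05) for SPG4, 1.5 (SE 0.16, adjusted p = 7.35e-05) for EGO4 and 1.13 (SE 0.09, adjusted p = 1.67e-05) for SPG5. These p-values are from the quasi-likelihood test of edgeR and were adjusted over the 6588 genes by the Benjamini-Hochberg method, and a gene was called when its adjusted p was below 0.05 and its fold change at least 1.5. Across the genome 14.1% of genes were called higher and 16.9% lower under CPTH2, against 4 of 4 members called higher. EGO4 and SPG1 had been put forward by fold changes of scFv-58F, and these DMSO cultures are shared with that strain's comparison. Low DMSO values would favour both that choice and a higher call here, so for these genes the test is not independent of the choice. SPG1 ranked 24 from the top among the fold changes, SPG4 92, EGO4 146 and SPG5 277. The median change of the members was 1.61 against -0.03 over all genes. All 4 calls held in each of the alternatives tried, among them leaving out any 1 culture.

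Curcumin lowered EGO4 and raised SPG4, while SPG1 and SPG5 did not pass the test. EGO4 fell 4.86-fold against DMSO (log2 fold change -2.28, SE 0.29, edgeR adjusted p = 0.00144) and was 137 from the bottom of the 6588 genes. SPG4 rose 1.66-fold (0.73, SE 0.21, edgeR adjusted p = 0.023). The estimates were 0.35 (SE 0.16, adjusted p = 0.107) for SPG1 and 0.26 (SE 0.25, adjusted p = 0.391) for SPG5, and that of SPG5 was -0.02 without Curcumin replicate 3. With 1 of 4 called higher and 1 of 4 called lower, the members were near the background, in which 27.9% of genes were called higher and 24.7% lower, and their median was 0.31 against 0.03. The call for SPG4 ended without DMSO replicate 1 (adjusted p = 0.108) or DMSO replicate 2 (adjusted p = 0.11), which were the 2 lower control cultures for this gene. That for EGO4 held without any 1 culture, and ended when levels were scaled to the tubulin gene TUB1, the reference transcript of the qPCR in the study (-1.49, adjusted p = 0.148). TUB1 itself measured 99.8, 115 and 445 CPM in the 3 Curcumin cultures, against 240 to 251 CPM in DMSO.

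The drugs were also compared with each other, at their different doses and with no use of the DMSO or intrabody cultures. All 4 genes were lower under Curcumin than under CPTH2. For EGO4 the levels differed 13.5-fold (-3.76, SE 0.37, edgeR adjusted p = 0.000949), the lowest log2 fold change of the 6588 genes in this fit. SPG1 was 4.81-fold lower (-2.27, SE 0.21, edgeR adjusted p = 0.000949), SPG4 1.95-fold (-0.97, SE 0.25, adjusted p = 0.0136) and SPG5 1.8-fold (-0.85, SE 0.27, adjusted p = 0.0302). Lower calls made up 23.6% of all genes and higher calls 26.7%, and the median was -1.62 for the members against 0.06 for all genes. EGO4 and SPG1 kept their calls without any 1 culture. SPG4 lost its call without Curcumin replicate 2, CPTH2 replicate 1 or CPTH2 replicate 2 (adjusted p = 0.0562, 0.0602 and 0.0606), and SPG5 without any of these (0.0985, 0.0728 and 0.101) and also without Curcumin replicate 1 (0.0575) or CPTH2 replicate 3 (0.088), all by edgeR's test. Both were also lost when libraries were scaled by their size alone (adjusted p = 0.0512 for SPG4 and 0.108 for SPG5).

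**Figure D2:**
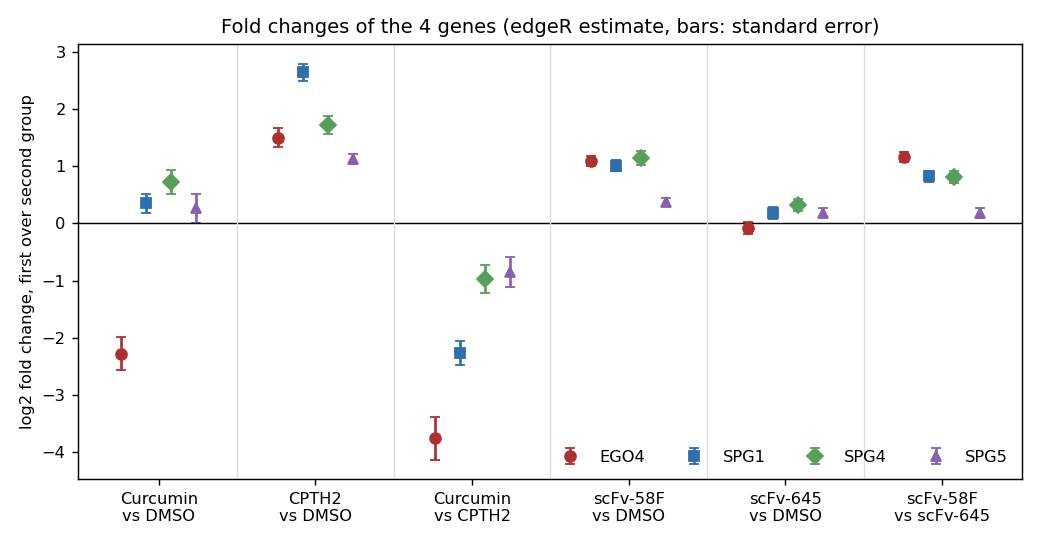
Log2 fold change (y axis, first group over second, edgeR estimate) of the 4 genes in each of the 6 comparisons (x axis), with bars of 1 standard error. EGO4 is at -2.28 in Curcumin and at 1.5 in CPTH2 against the same DMSO cultures, whereas the 3 SPG genes have estimates above 0 in both. Of these 3, only SPG4 was called in Curcumin against DMSO, and its call depended on single cultures.

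In the strain expressing scFv-58F, whose contrasts were used to choose the members, SPG4 was 2.2-fold, EGO4 2.13-fold and SPG1 2.01-fold above the DMSO control, on the log2 scale 1.14 (SE 0.12), 1.09 (SE 0.08) and 1.01 (SE 0.10). SPG5 was 1.3-fold above (0.38, SE 0.07). Against scFv-645 the estimates were 1.16 (SE 0.09) for EGO4, 0.82 (SE 0.10) for SPG1, 0.81 (SE 0.10) for SPG4 and 0.18 (SE 0.08) for SPG5. No test of the members is given for these contrasts. Over all genes 1.97% were called higher and 5.43% lower in the first comparison and 0.668% higher and 2.13% lower in the second. With scFv-645 against DMSO none of the 4 reached a fold of 1.5: the estimates were -0.08 (SE 0.10) for EGO4, 0.18 (SE 0.11) for SPG1, 0.32 (SE 0.10) for SPG4 and 0.19 (SE 0.07) for SPG5, where 1.32% of all genes were called higher and 2.7% lower. Each of these 3 comparisons shares cultures with the other two.

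The ratio of 2 genes within a culture does not depend on how libraries are scaled. The ratio of EGO4 to SPG4, per kilobase, was 2.57, 2.84 and 2.44 in DMSO, 2.38, 2.21 and 2.06 under CPTH2 and 0.354, 0.226 and 0.38 under Curcumin. It was 2.05, 2.6 and 3.05 with scFv-58F and 1.91, 2.12 and 1.88 with scFv-645. Only under Curcumin did the SPG4 level exceed that of EGO4, in 3 of 3 cultures. EGO4 to SPG5 behaved alike, at 3.96, 2.32 and 2.09 under Curcumin and at 11.7 or above in the 12 other cultures. EGO4 to SPG1 was lower under CPTH2 (6.51 to 6.99) than in DMSO (14.3 to 15.6), and lowest under Curcumin (1.54 to 3.36). These ratios were formed after the levels were seen and are given as a description.

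**Figure D3:**
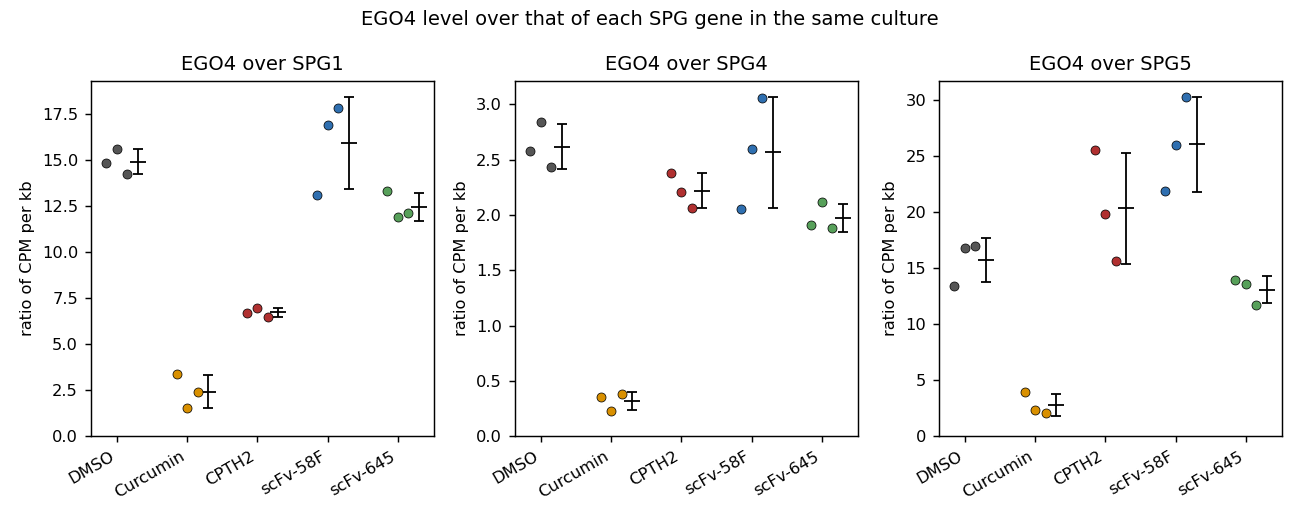
Ratio of the EGO4 level to that of SPG1, SPG4 and SPG5 in the same culture (y axes, ratio of CPM per kb, from 0) for the 5 groups (x axes); circles are cultures and the bar beside them is the mean ± SD. The 3 Curcumin cultures have the lowest ratio in every panel, 0.226 to 0.38 for EGO4 over SPG4.

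Genes beside the members were measured in the same libraries. EGO4 faces ARC35, a subunit of the actin-nucleating Arp2/3 complex, across 161 bp, with the 3′ ends of both genes pointing at each other, and lies 1274 bp from SOL1. ARC35 was 1.8-fold lower under Curcumin than in DMSO (-0.85, SE 0.25, edgeR adjusted p = 0.0265) and 2.13-fold lower than under CPTH2 (-1.09, SE 0.27, edgeR adjusted p = 0.0119). SOL1 was higher under Curcumin than in DMSO by 2.83-fold (1.5, SE 0.49, edgeR adjusted p = 0.0358). Its 3 Curcumin cultures were uneven, at 57.8, 88.2 and 226.5 CPM, with the highest value in replicate 3. Counting ignored the strand, and the part that transcripts reaching across the 161 bp could have in the values of EGO4 and ARC35 was not tested. Of the 8 neighbours, SOL1 was the one that CPTH2 moved past the rule, by 1.55-fold (0.63, SE 0.12, edgeR adjusted p = 0.00134). Over all genes 14.1% were called higher and 16.9% lower under CPTH2, and 27.9% and 24.7% under Curcumin. Under Curcumin the genes on either side of SPG4 went opposite ways, with YKU80, a DNA end-binding protein, 2.5-fold lower (-1.32) and ILV2, an enzyme of branched amino acid synthesis, 2.95-fold higher (1.56). Beside SPG5 the helicase gene SGS1 rose 2.11-fold (1.08), and GYL1 was at 0.08. Beside SPG1 the uncharacterised YGR237C rose 1.68-fold (0.75), and MIC26, a subunit of the mitochondrial MICOS complex, was at 0.12. Curcumin replicate 3 stood apart for MIC26 (196.5, 166.1 and 54.4 CPM in replicates 1 to 3) and for ILV2 (761.5, 750.1 and 1687 CPM).

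EGO2 (YCR075W-A), the paralog of EGO4, was at a far lower level. Its mean was 14.7 ± 1.41 CPM in DMSO, 9.93 ± 3.07 under Curcumin, 13.1 ± 1.20 under CPTH2, 15.9 ± 0.766 with scFv-58F and 13.4 ± 2.14 with scFv-645 (SD, n = 3 each). No comparison called it, with log2 fold changes of -0.58 (SE 0.26, edgeR adjusted p = 0.094) for Curcumin and -0.15 (SE 0.12, adjusted p = 0.282) for CPTH2 against DMSO. SPG3 (YDR504C), needed like SPG1 and SPG4 to survive heat in stationary phase, was the scarcest gene of this name, at 8.04 ± 1.10 CPM in DMSO. It fell with both intrabodies, to 3.94 ± 0.351 CPM with scFv-58F (-0.99, SE 0.15, edgeR adjusted p = 0.000351) and 4.83 ± 0.449 CPM with scFv-645 (-0.71, SE 0.15, adjusted p = 0.00624), and the drugs gave -0.32 (adjusted p = 0.336) for Curcumin and -0.37 (adjusted p = 0.074) for CPTH2.

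A list of 26 other genes that rise as cultures enter stationary phase or in the general stress response was read beside the members. It was drawn up with earlier results of these data known, so its counts beside the shares over all genes are a description and no independent support. Under CPTH2, 25 of the 26 were called higher and 1 lower, where 14.1% and 16.9% of all genes were, with a median log2 fold change of 1.65 against -0.03 over all genes. The 3 strongest were HSP26, a small heat shock protein (30-fold, 4.90, SE 0.25, edgeR adjusted p = 5.13e-06), the Hsp70 gene SSA3 (20.9-fold, 4.38, SE 0.23) and HSP31, a chaperone and methylglyoxalase (8.86-fold, 3.15, SE 0.13). The exception was SPS100, a spore wall gene at a low level (-0.62, SE 0.21, adjusted p = 0.0272, 4.11 against 6.24 CPM), whose call ended without DMSO replicate 2 or 3 or CPTH2 replicate 1 or 3. Under Curcumin, 11 were called higher and 2 lower, where 27.9% and 24.7% of all genes were, with a median of 0.22 against 0.03. SSA3 (22.3-fold, 4.48, SE 0.26), HSP26 (13.9-fold, 3.8, SE 0.51) and SPS100 (13.9-fold, 3.8, SE 0.57) led the higher calls. The lower ones, named after their values were seen, were RGI2 (-1.45, SE 0.45, adjusted p = 0.0319) and SOL4 (-1.10, SE 0.27, adjusted p = 0.0132), and their number ranged from 0 to 6 when 1 culture was left out, being 0 without DMSO replicate 3 or Curcumin replicate 2, 1 without DMSO replicate 1 or DMSO replicate 2, and 6 without Curcumin replicate 1. Between the drugs 14 of the 26 were lower under Curcumin and 1, SPS100, was higher. Lower and higher calls made up 23.6% and 26.7% of all genes there. TFS1, an inhibitor of carboxypeptidase Y, and MSC1 were 3.7-fold and 2.71-fold lower under Curcumin than under CPTH2 (edgeR adjusted p = 0.00117 and 0.00337). For scFv-58F against DMSO 7 of the 26 were called higher (1.97% of all genes). For scFv-645 against DMSO 4 were (1.32%), namely HSP26, HSP42, HSP104 and RGI2, and all 4 were also among the 7 called with scFv-58F. For scFv-58F against scFv-645 again 4 were called higher (0.668%), which were HSP12, FMP16, TMA10 and RGI1. The 4 with scFv-645 against DMSO became 2 without scFv-645 replicate 3, and with all 5 groups in a single model both counts of 4 became 0. The names in these sets of 4 were taken after their values were seen.

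**Figure D4:**
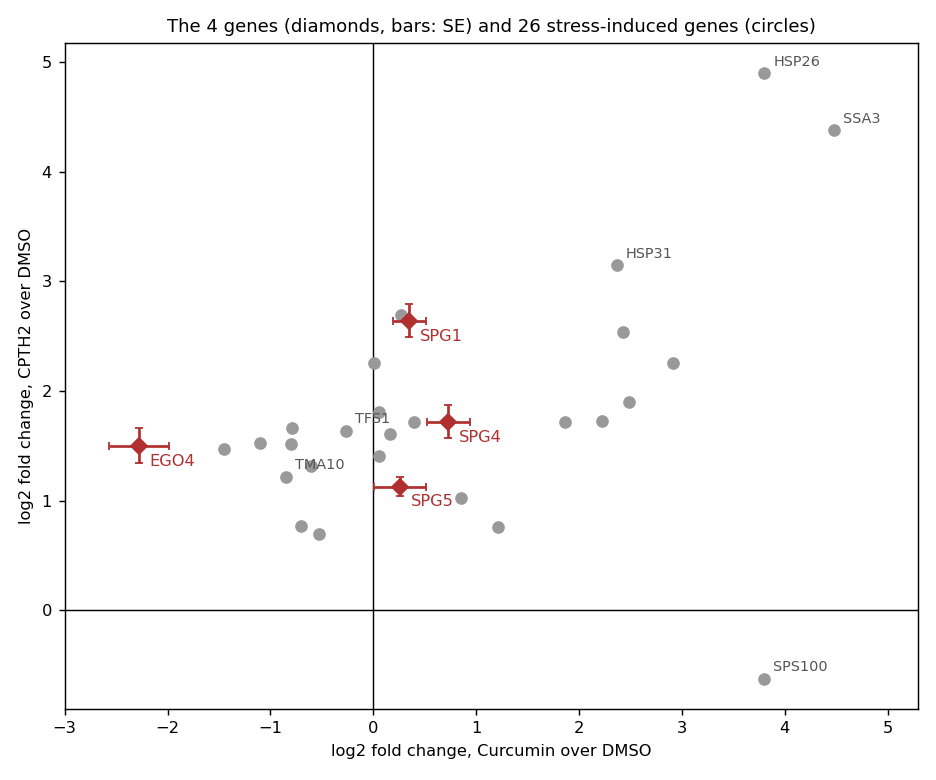
Log2 fold change over DMSO under Curcumin (x axis) and under CPTH2 (y axis) for the 4 genes (diamonds, with bars of 1 standard error) and the 26 listed stress-induced genes (circles). Both axes use the same 3 DMSO cultures. EGO4 lies at -2.28 and 1.5, to the left of all 26 listed genes, and SPS100 is the one gene below 0 on the y axis.

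Other lists, 3 in all and likewise drawn up with earlier results known, covered the pathways in which the members are placed. Of 17 regulators of entry into quiescence, Curcumin raised 7 and lowered 3, and CPTH2 raised 6 and lowered 1. Over all genes 27.9% were higher and 24.7% lower under Curcumin and 14.1% and 16.9% under CPTH2, and the lower calls of this list were not above those shares. Without 1 culture the calls of the list under Curcumin ranged from 6 to 8 higher and from 2 to 4 lower. Under CPTH2 the higher calls ranged from 5 to 8. The kinase RIM15 (6.42-fold, 2.68, SE 0.53) and the stress-induced repressor XBP1 (5.77-fold, 2.53, SE 0.27) rose with Curcumin, and IGO2, a target of Rim15 that protects mRNA in quiescence, fell 3.75-fold (-1.91, SE 0.24). The kinase genes YAK1 and TPK2 fell 1.51-fold (-0.59, SE 0.17) and 2-fold (SE 0.18 on the log2 scale). CPTH2 raised XBP1 2.22-fold (1.15, SE 0.11), the PAS kinase PSK1 1.92-fold (0.94, SE 0.10) and BCY1, the inhibitory subunit of protein kinase A, 1.84-fold (0.88, SE 0.10), and lowered TPK3, a catalytic subunit of protein kinase A, 1.83-fold (-0.87, SE 0.14). Of 15 genes of the EGO complex and TORC1, Curcumin raised 3 and lowered 2 and CPTH2 raised 1 and lowered 1, all below the shares over all genes with TMM scaling. The Curcumin calls included SCH9, the main kinase downstream of TORC1 (5.44-fold, 2.44, SE 0.18), NPR2, a subunit of a complex that inhibits TORC1 (2.62-fold, 1.39, SE 0.45), and SLM4, a partner of Ego2 in the EGO complex (2.91-fold lower, -1.54, SE 0.20). The remaining calls were TOR2, 1.86-fold higher (0.90, SE 0.16), and LST8, 1.9-fold lower (-0.93, SE 0.16), both for subunits of TOR complexes. CPTH2 raised SCH9 by 1.53-fold (0.62, SE 0.09) and lowered the GTPase gene GTR1 by 1.56-fold (-0.64, SE 0.08). With libraries scaled by their size alone, Curcumin raised 7 of the 15 genes of the TORC1 list and lowered 1, where 2521 and 1052 of 6588 genes were called. The lower calls for the TORC1 list under Curcumin became 4 without Curcumin replicate 1. Those under CPTH2 depended on the cultures too: SCH9 was no longer called without CPTH2 replicate 2 or 3, and the number of lower calls became 2 without DMSO replicate 2 or CPTH2 replicate 1 and 0 without CPTH2 replicate 3. YAK1, TPK2, TPK3, TOR2 and LST8 were named after their values were seen. All changes named here had an edgeR adjusted p below 0.05.

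The base of the proteasome regulatory particle, to which Spg5 binds, was represented by 13 tested genes of 14 listed. Curcumin raised 8 and lowered 2, where 27.9% and 24.7% of all genes were called, and CPTH2 raised 4, where 14.1% were, with list medians of 0.85 and 0.52 against 0.03 and -0.03 over all genes. Under Curcumin the scaffold subunits RPN1 and RPN2 rose 6.68-fold (2.74, SE 0.26) and 3.11-fold (1.64, SE 0.28) and the ATPase gene RPT2 2.83-fold (1.5, SE 0.33), while SPG5 itself did not pass the test. The lower calls, named after their values were seen, were NAS2 (-1.05, SE 0.25) and RPN14 (-1.21, SE 0.19), chaperones of base assembly, and without Curcumin replicate 2 only 1 was left. With CPTH2 RPN2, RPN1 and RPT5 rose 1.67-fold, 1.64-fold and 1.64-fold, and SPG5 2.19-fold. The 8 higher calls under Curcumin became 3 without DMSO replicate 1 or 2 and 4 without DMSO replicate 3, Curcumin replicate 1 or Curcumin replicate 2, and the 4 under CPTH2 became 8 without CPTH2 replicate 1. In the comparisons of the intrabody strains, no gene of the TORC1 and base lists was called by edgeR or DESeq2, since none reached a fold of 1.5. Over all genes edgeR called 1.97% higher and 5.43% lower for scFv-58F against DMSO. The shares were 1.32% and 2.7% for scFv-645 against DMSO, and 0.668% and 2.13% for scFv-58F against scFv-645. With shares this small, the absence of calls in lists of 13 and 15 genes says little about these lists. For scFv-58F against DMSO, 5 of 15 and 11 of 13 had an unadjusted p below 0.05, and as many an edgeR adjusted p below 0.05. Over all genes 3231 of 6588 had an edgeR adjusted p below 0.05 there. Of the regulators 1 was called, the PAS kinase PSK2, 1.55-fold lower with scFv-58F than in DMSO (-0.63, SE 0.05) and named after its value was seen. With scFv-645 PSK2 was lower too (-0.47, SE 0.07, edgeR adjusted p = 0.00178), short of the fold of 1.5. Between the intrabody strains it differed by -0.16 (SE 0.08, edgeR adjusted p = 0.161).

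The likeness of patterns was measured as Pearson's r of the log2 CPM across cultures. These fall into 5 groups of 3 that share treatment and strain, so r mostly reflects group levels, and no test is given. Over the 15 cultures the 3 SPG genes were alike (SPG1 and SPG4 0.92, SPG1 and SPG5 0.90, SPG4 and SPG5 0.81), and EGO4 less so (0.62 with SPG1, 0.53 with SPG5 and 0.48 with SPG4). Without the 3 Curcumin cultures EGO4 reached 0.91 with SPG1, 0.95 with SPG4 and 0.82 with SPG5. Many other genes had r as high. Ranked by r with EGO4 over these 12 cultures, SPG4 was 30, SPG1 105 and SPG5 472 from the top of 6587 genes. Over all 15 cultures the ranks of the SPG genes for each other ran from 4 to 152. Over all 15 the genes most like EGO4 were REE1, a regulator of enolase (r = 0.99), the vacuolar ribonuclease gene RNY1 (0.99), DSC3 (0.98), the sulfurtransferase gene RDL1 (0.98) and FIS1, for mitochondrial fission (0.98). RDL1, for example, averaged 305 CPM in DMSO, 113 under Curcumin, 441 under CPTH2, 449 with scFv-58F and 304 with scFv-645, the same order of groups as EGO4 apart from an exchange within an overlapping pair. Over the 12 cultures without Curcumin they were URA10, for pyrimidine synthesis (0.99), REE1 (0.98) and the ribosome-associated TMA10 (0.98).

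For SPG1 the closest genes over 15 cultures were YGR201C (r = 0.98), YOR019W (0.97), the pexophagy receptor gene ATG36 (0.97), MSC1 (0.97) and YGR127W (0.96), and over 12 OXR1, RTC3 and TFS1 (0.99 each). MSC1 and TFS1 also belong to the stress list above. For SPG4 they were PST2, a flavodoxin-like protein (0.95), the kinase gene RIM11 (0.95), YGR201C (0.93), the copper transporter gene CTR3 (0.90) and ARP2 (0.90), and over 12 COQ4, for ubiquinone synthesis (0.99), the glutathione transferase gene GTT1 (0.98) and ATG33, for mitophagy (0.98). For SPG5 they were the respiratory complex III gene QCR2, the invertase gene SUC2 and the carboxypeptidase Y gene PRC1 (0.97 each), the aldehyde dehydrogenase gene ALD2 (0.96) and YJL067W (0.96), which overlaps another gene so that its reads are uncertain. Over 12 cultures they were fumarase FUM1, CTR3 and the mitochondrial porin gene POR1 (0.99 each). SUC2, which glucose represses, averaged 141 CPM in DMSO, 204 under Curcumin, 1668 under CPTH2, 244 with scFv-58F and 219 with scFv-645, a wider range than SPG5.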

How the data were processed

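RNA-seq reads (TruSeq stranded mRNA, single end) were trimmed with cutadapt and mapped with segemehl by the authors, who counted them on genes with NGSutils 0.5.9, ignoring strand and with partial counting of reads that map to several places, and deposited 1 table per culture with raw counts, CPM and RPKM. Only the deposited counts were used here, and the CPM and RPKM columns were not. Genes with at least 10 counts in 3 or more of the 15 samples were tested (6588). Each comparison was fitted on its 6 samples with edgeR 4.0.16 (R 4.3.3), TMM scaling and the quasi-likelihood test, and called at a Benjamini-Hochberg adjusted p below 0.05 and a fold of 1.5, the fold cutoff of the study. Levels are CPM from TMM factors over all 15 samples. Log2 CPM for correlations used a prior count of 2. The study states that the 3 replicates are biological. The members and gene lists were chosen with earlier results of these data known. The genes named were the members, EGO2, SPG3, TUB1, the adjacent genes, the 3 called genes per list with the largest change under each drug, and the 5 and 3 genes most correlated with each member over 15 and 12 samples. Any others are stated to be chosen after their values were seen. TMA10, MSC1 and TFS1 are named as correlated genes. Sequences were read from the RefSeq R64 assembly, in which 5981 of 6692 genes had the same coordinates as in the files. Alternatives were DESeq2 1.42.0, other scalings, filters and cutoffs, a model of all 5 groups, a replicate block and leaving out each replicate.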

Additional observations from a re-analysis of the deposited data

How the results depend on the processing

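All 4 members stayed called higher for CPTH2 against DMSO under each of the 16 alternatives. For Curcumin against DMSO the number of members called, 2, became 0 with TUB1 scaling, 1 with glmTreat (a test against the fold cutoff) and 1 to 2 without 1 replicate, and for Curcumin against CPTH2 the number, 4, became 2 with library size only, 1 with TUB1 scaling, 2 with glmTreat and 2 to 4 without 1 replicate. The sign of SPG5 for Curcumin against DMSO was reversed without Curcumin replicate 3 (-0.02; 0.44 without Curcumin replicate 2), and SPG1 there passed the test with library size only (0.70, adjusted p = 0.0114). With TUB1 scaling the median of the members was -0.04 for scFv-645 against DMSO and 1.03 for scFv-58F against scFv-645. The cause of these moves was not tested. Of the 192 member fold changes of the drug comparisons under alternatives, 169 kept their direction and side of the threshold; those of the intrabody strains were not scored against a threshold. For scFv-58F against scFv-645 the 44 genes called higher became 0 with all 5 groups in a single model and 2 with glmTreat. Of 768 counts of list calls 111 moved by over 1.5 times.

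With library size only the median over all genes was 0.38 for Curcumin against DMSO and 0.38 against CPTH2, and with TUB1 scaling it was 0.80 for Curcumin and 0.33 for CPTH2 against DMSO. The split of higher and lower calls for Curcumin against DMSO was 1838 to 1629, against 2521 to 1052 with library size only and 1074 to 32 with TUB1 scaling. For CPTH2 against DMSO it was 928 to 1115, against 2131 to 369 with TUB1 scaling.

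Same-numbered cultures did not all deviate together: their correlations ran from 0.00 to 0.08 for Curcumin and DMSO, from -0.38 to 0.09 for CPTH2 and DMSO and from 0.08 to 0.12 for the 2 drugs, where each culture correlated best with its own number. For Curcumin and DMSO 2 of 3 did so, and for CPTH2 and DMSO 0 of 3. The main fits do not treat the numbers as pairs, and these values do not settle whether they are. With a replicate block the number of members called was 1 for Curcumin against DMSO (SPG4 at adjusted p = 0.0647), 4 for CPTH2 against DMSO and 4 for Curcumin against CPTH2.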

Other observations

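TUB1, an alpha-tubulin gene, was scattered among the Curcumin cultures: its SD was 195 CPM around a mean of 220 CPM in the 3 Curcumin cultures, against 5.55 CPM around 245 CPM in DMSO and 7.52 CPM around 247 CPM with scFv-58F. Curcumin replicate 3, at 445 CPM, was also the culture with the highest level of SPG5 (164 CPM) and SPG1 (36.7 CPM) in its group, but not of EGO4 or SPG4. Under CPTH2 TUB1 measured 197, 165 and 217 CPM (-0.34 against DMSO, SE 0.11, edgeR adjusted p = 0.0208, short of the fold of 1.5).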
